A study of Mus musculus with 8 samples.

Results

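The 10 immediate-early genes Fos, Fosb, Jun, Junb, Egr1, Atf3, Ier2, Ier3, Dusp1 and Btg2 were followed across 8 liver arrays. They were chosen by name, as every probe that carries one of these symbols in the deposited table: 16 probes of 56605, or 10 genes of 26866 with a symbol. Of these probes, 14 were well above background on at least 3 of the 4 arrays of a group and were tested, so that all 10 genes entered the fit among 16495 tested genes. Tx livers came from female NFS/sld mice thymectomised on day 3 after birth and sampled 8 weeks after the operation, as a model of primary Sjögren's syndrome. The nonTx livers came from female NFS/sld mice that kept their thymus. For these control mice the labels give no age and no sham operation. Each group had 4 arrays, which the labels call independent replicates without saying that each held 1 mouse, so each p-value rests on the spread among these arrays alone. One Agilent slide carried all 8 arrays in 1 scan, with the Tx arrays in row 2 and the nonTx arrays in row 1, so that the row of the slide and the group cannot be told apart.

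Immediate-early genes are switched on within minutes of a stimulus, before new proteins are needed, by transcription factors such as SRF and CREB that kinases of the MAP kinase and cAMP pathways activate. Fos and Jun proteins pair up to form AP-1, a factor that drives a later wave of genes, while phosphatases such as Dusp1 shut the kinases off again, and the transcripts themselves decay fast. In liver these genes are known for their surge after partial hepatectomy and injury, and handling of the tissue is known to raise them.

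The bases before the start site are shown for the 5 of the genes whose window held a binding motif of CREB, ATF or Jun proteins, since these are the sites through which such stimuli are known to act. Each line gives the 250 bases before the start site in RefSeq, GRCm38.p6, with the strand of the gene read 5′ to 3′. Fos lies at chr12:85473640-85473889 on the plus strand. The other windows are on the minus strand, Jun at chr4:95052223-95052472, Dusp1 at chr17:26508473-26508722, Btg2 at chr1:134079156-134079405 and Atf3 at chr1:191183334-191183583. Capitals mark the CRE core TGACGT on either strand and, in Jun, the related site TGACATCA.
Fos: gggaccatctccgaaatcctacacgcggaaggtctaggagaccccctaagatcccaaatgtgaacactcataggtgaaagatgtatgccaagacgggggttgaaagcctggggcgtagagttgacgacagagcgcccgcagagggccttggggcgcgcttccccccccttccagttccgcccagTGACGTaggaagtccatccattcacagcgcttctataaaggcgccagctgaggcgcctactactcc
Jun: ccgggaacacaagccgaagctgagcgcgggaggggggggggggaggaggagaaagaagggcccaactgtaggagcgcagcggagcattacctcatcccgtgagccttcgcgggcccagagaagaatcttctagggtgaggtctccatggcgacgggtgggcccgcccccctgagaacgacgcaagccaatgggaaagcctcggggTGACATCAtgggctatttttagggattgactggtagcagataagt
Dusp1: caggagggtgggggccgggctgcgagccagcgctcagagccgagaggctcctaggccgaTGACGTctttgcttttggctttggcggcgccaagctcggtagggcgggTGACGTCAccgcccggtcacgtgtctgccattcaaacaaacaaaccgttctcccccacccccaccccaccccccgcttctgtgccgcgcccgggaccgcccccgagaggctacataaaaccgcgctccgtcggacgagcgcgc
Btg2: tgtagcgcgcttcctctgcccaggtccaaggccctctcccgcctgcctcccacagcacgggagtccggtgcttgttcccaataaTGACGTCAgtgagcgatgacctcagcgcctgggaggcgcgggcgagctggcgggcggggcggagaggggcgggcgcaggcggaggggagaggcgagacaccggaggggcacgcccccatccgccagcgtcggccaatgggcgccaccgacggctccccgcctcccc
Atf3: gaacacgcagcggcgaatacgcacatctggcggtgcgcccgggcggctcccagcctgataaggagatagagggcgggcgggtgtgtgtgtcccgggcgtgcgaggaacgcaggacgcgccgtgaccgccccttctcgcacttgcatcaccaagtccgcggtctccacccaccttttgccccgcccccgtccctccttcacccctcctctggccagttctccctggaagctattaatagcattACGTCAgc
The CRE core was found in 4 of the 8 genes with a window in the table used, Fos, Dusp1, Btg2 and Atf3, and in 6.47% of 32851 promoter windows of the same length. In Fos it began 66 bases before the start site and in Atf3 8 bases before it. In Dusp1 and Btg2 overlapping matches on both strands form the full palindrome, from 143 and 166 bases before the start site, and Dusp1 holds another match at 191. The site of Jun began 45 bases before its start, and 2.93% of all windows hold those letters. Neither the AP-1 site TGAGTCA (4.46% of windows) nor the CArG box bound by SRF (1.47%) was found in any of the 8 windows. Sites more than 250 bases before the start were not searched, so their absence from the promoters is not shown. An Egr site, GCGGGGGCG, was found in Fosb, in which it began 50 bases before the start, against 2.57% of all windows. Ier2 and Egr1 are not shown. A match is a description of letters, not evidence that a factor was bound.

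No difference between Tx and nonTx livers passed the test for any of the 10 genes, and for Fos, Jun, Egr1, Atf3, Ier2 and Btg2 the SD of either group was larger than the difference between the groups. By limma with Benjamini-Hochberg adjustment over all probes, 0 of the 10 genes were called at an adjusted p of 0.05 (background: 0% of 16495 genes and 0% of 30955 probes). At an unadjusted p under 0.05, Dusp1 and Fosb were lower in Tx and 0 were higher, against 5.25% of all tested genes lower and 8.65% higher. The log2 difference was above 0 for 5 genes and below 0 for 5, with 56.3% of all tested genes above 0. Its median was 0.01 over the 10 genes and 0.03 over all tested genes. The count and the median of the 10 genes depend on Tx replicate 1, without which 2 of them were higher in Tx and their median was -0.43. In each of the 10 genes the values of the 2 groups overlapped, whereas the groups did not overlap in 5.11% of all tested genes with Tx higher and in 2.95% with Tx lower. In bulk liver, a change in the number of cells of a type and a change of RNA per cell cannot be told apart. Values below are the processed signal of each array in the order of replicates 1 to 4, and differences are on a log2 scale after each array was scaled to its 75th percentile, Tx minus nonTx, with the standard error (SE) of the fit.

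**Figure D1:**
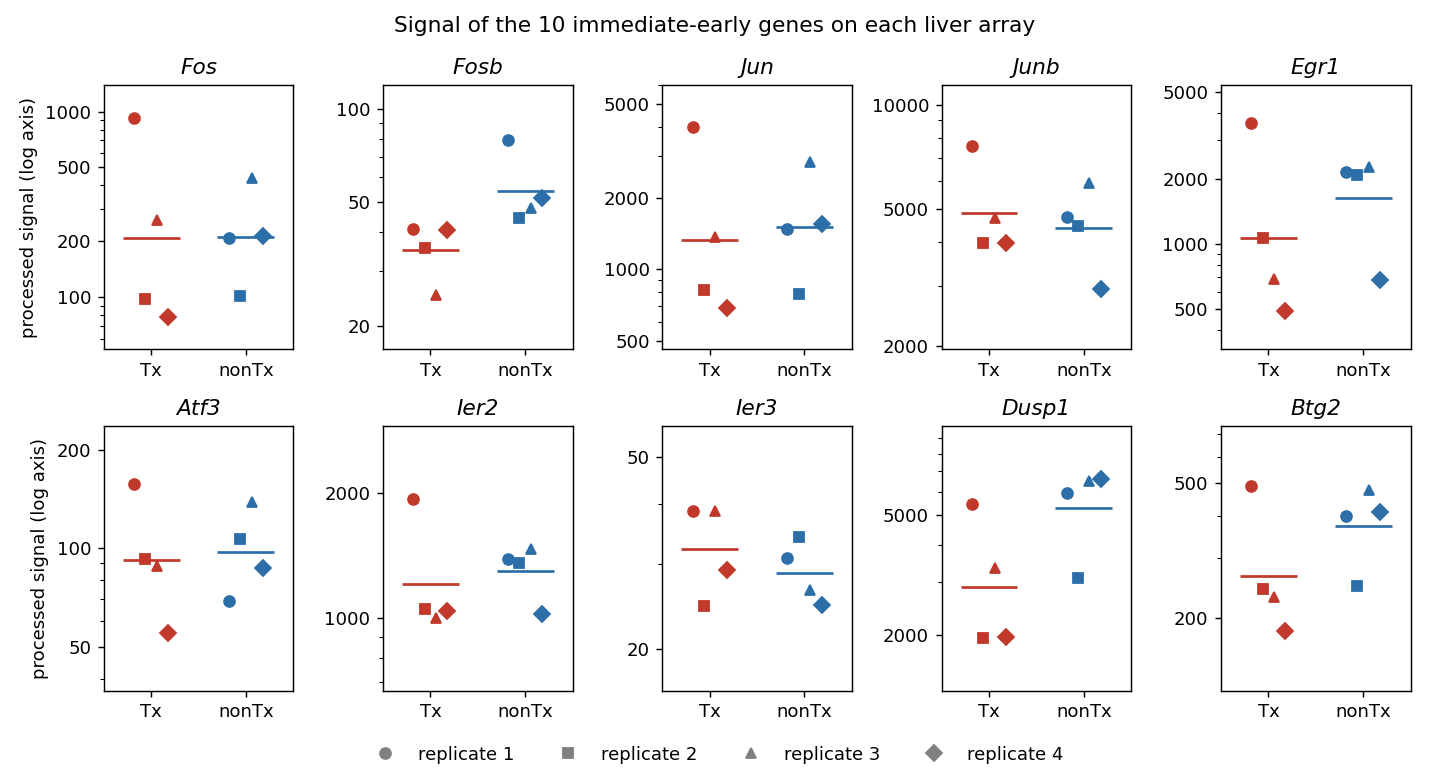
Processed signal (log axis, not scaled between arrays) of each of the 10 genes on its brightest probe, with Tx arrays left in red and nonTx arrays right in blue. Symbols mark the replicate number and lines the geometric mean of 4 arrays. Tx replicate 1 is the top Tx point in 9 of the 10 panels, and nonTx replicate 3 is the top nonTx point in 7.

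Fos, the inducible partner of Jun in AP-1, had the widest spread of the 10 genes. Its signal was 927, 98.2, 261 and 78.7 on the Tx arrays, against 208, 102, 439.6 and 215 on the nonTx arrays. Tx replicate 1 was the highest of all 8 arrays and Tx replicate 4 the lowest, so that the nonTx values lay inside the Tx range. After scaling, the highest Tx array stood 8.03-fold over the lowest, and the highest nonTx array 4.13-fold over the lowest. The difference was 0.13 ± 0.64 (SE), with a 95% interval from -1.30 to 1.57 and an adjusted p of 0.94 by limma. Leaving out Tx replicate 1 turned it to -0.46.

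Fosb, a close relative of Fos, was dim. On its brighter probe the signal was 41.0, 35.4, 25.1 and 40.6 on the Tx arrays and 79.4, 44.4, 47.8 and 51.4 on the nonTx arrays. Every unscaled Tx value was below every nonTx value, but after scaling Tx replicate 4 (-2.47) lay above nonTx replicates 2 (-2.64) and 3 (-2.59). Its difference was -0.48 ± 0.21, a 1.39-fold lower level in Tx (limma, adjusted p = 0.377, unadjusted p = 0.0492). With normexp background correction it shrank to -0.09. The dimmer Fosb probe stayed at background on all 8 arrays, with signals of 3.04 to 3.77 in Tx and 2.94 to 3.94 in nonTx.

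Jun, the AP-1 partner of Fos, followed Fos from array to array. Its signal was 4012, 819, 1374 and 689 on the Tx arrays and 1485, 790.2, 2841 and 1553 on the nonTx arrays. As for Fos, Tx replicate 1 was the highest and Tx replicates 2 and 4 were low, while nonTx replicate 3 was the highest and replicate 2 the lowest of its group. Scaled values spanned 3.97-fold among Tx arrays and 3.43-fold among nonTx arrays. The difference was -0.03 ± 0.46 (95% interval from -1.06 to 1.01, limma adjusted p = 0.984).

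Junb, an AP-1 subunit that can restrain Jun, was bright and varied less. Its brightest probe read 7603, 3979, 4709 and 3969 in Tx and 4735, 4469, 5950.4 and 2941 in nonTx. Tx replicate 1 was again the highest and nonTx replicate 4 the lowest. The difference was 0.31 ± 0.19 (limma, adjusted p = 0.469), and it was 0.05 when its 3 tested probes were averaged. Among the 4 Junb probes, a dim one gave 74.3, 41.7, 51.6 and 51.1 in Tx and 45.5, 44.2, 75.6 and 26.9 in nonTx, a difference of 0.41 ± 0.27. The third probe, which the table ties to an Ensembl transcript, ran the other way at -0.57 ± 0.32, and there Tx replicate 1 was the lowest array after scaling. The last Junb probe stayed at background on all 8 arrays. Neither of the tested dim probes passed, with limma adjusted p of 0.496 and 0.444.

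Egr1, a zinc finger factor that growth signals switch on alongside Fos, had 1 array apart from the rest in the nonTx group. Its signal was 3601, 1063, 689 and 489 on the Tx arrays and 2150.4, 2086, 2265 and 678 on the nonTx arrays. In Tx, replicate 1 stood alone at the top, 2.56-fold over the next Tx array after scaling. In nonTx, replicates 1 to 3 lay within 1.1-fold of each other and replicate 4 was low. The difference was -0.45 ± 0.50 (95% interval from -1.57 to 0.68, limma adjusted p = 0.694). It was -0.91 without Tx replicate 1, -0.85 without nonTx replicate 4 and -0.13 without Tx replicate 4, the first and last being the ends of its range when 1 array was left out.

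Atf3, a stress-induced repressor of the ATF and CREB family, showed no separation of the groups. Its signal was 157, 92.6, 88.4 and 55.1 in Tx and 69.0, 106.8, 138 and 87.2 in nonTx, with Tx replicate 1 and nonTx replicate 3 at the top of their groups. Its difference was 0.08 ± 0.25 (limma, adjusted p = 0.909). Ier2, a small nuclear protein of this class, read 1941, 1051, 998 and 1037 in Tx and 1389, 1354, 1471 and 1024 in nonTx. It varied least of the 10 genes, with an SD of 0.22 in Tx and 0.20 in nonTx on the log2 scale (n = 4 each). The difference was 0.05 ± 0.13 (95% interval from -0.25 to 0.35, limma adjusted p = 0.88). A further, dim Ier2 probe, which the table ties to a transcript cluster, was well above background on 1 Tx array and on all 4 nonTx arrays. There the signal was 15.1, 16.2, 30.3 and 17.2 in Tx and 36.4, 27.8, 39.0 and 63.0 in nonTx. It entered the fit only through the nonTx arrays, and with 3 Tx arrays not well above background no difference or order of arrays is read from it.

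Ier3, a stress-induced regulator of cell survival, was dim and did not follow the others. Its signal was 38.6, 24.6, 38.7 and 29.3 in Tx and 30.9, 34.1, 26.5 and 24.7 in nonTx, and after scaling Tx replicate 3 was the highest and nonTx replicate 4 the lowest. The difference was 0.32 ± 0.21 (limma, adjusted p = 0.492).

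Dusp1, the phosphatase that switches MAP kinases off, differed most between the groups. Its signal was 5454, 1963, 3332 and 1974 on the Tx arrays, against 5942, 3097, 6507 and 6592 on the nonTx arrays. Tx replicates 2 and 4 were the lowest of all 8 arrays, but Tx replicates 1 and 3 lay above nonTx replicate 2, so the groups overlapped. The difference was -0.71 ± 0.29, a 1.64-fold lower level in Tx (95% interval from -1.36 to -0.07). It did not pass over all probes (limma, adjusted p = 0.356, unadjusted p = 0.0336), and leaving out 1 array moved it between -0.96 and -0.54.

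Btg2, an antiproliferative partner of mRNA deadenylases, had 2 probes that read alike. On the brighter one the signal was 493, 244, 231 and 183 in Tx and 400.2, 248, 478 and 411 in nonTx. Tx replicates 2 to 4 were all below every nonTx array before scaling, and Tx replicate 1 was the highest of all, though after scaling nonTx replicate 3 was. The difference was -0.33 ± 0.22 (limma, adjusted p = 0.508). On the other probe it was -0.27 ± 0.23 (limma, adjusted p = 0.591).

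**Figure D2:**
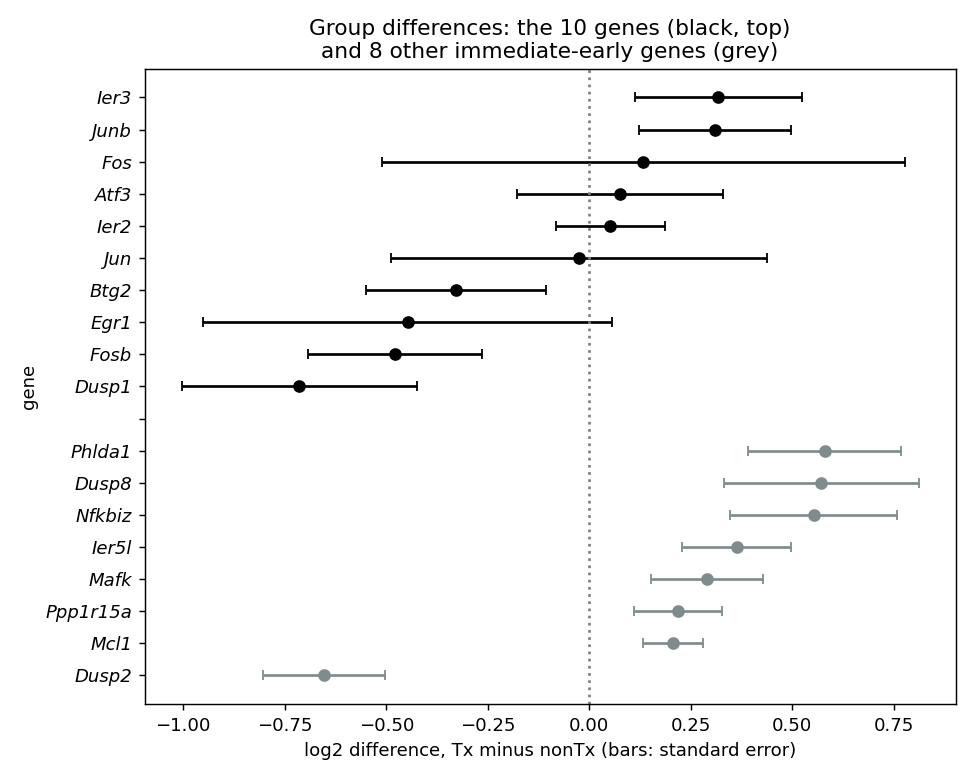
Log2 difference of Tx minus nonTx for the 10 genes (black) and 8 other immediate-early genes (grey), with bars for the standard error of the limma fit (4 arrays per group). Dusp1 lies farthest left at -0.71, the bars of Fos, Jun and Egr1 are the longest, and no gene shown passed the test over all probes.

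The spread inside each group was the main feature of these genes. All 10 had an SD above the median of all tested genes in both groups, which was 0.21 in Tx and 0.15 in nonTx on the log2 scale. Wide spread was not particular to them. The median SD was 0.38 in Tx and 0.42 in nonTx over the 10 genes. It was 0.34 and 0.29 over 52 other immediate-early genes, and 0.53 and 0.37 over 19 clock and glucocorticoid response genes. Fos had an SD of 1.42 in Tx and 0.84 in nonTx (n = 4 each), above 99.3% and 98.9% of all tested genes. Egr1 followed with 1.01 in Tx and 0.80 in nonTx, and Jun with 0.92 in Tx and 0.73 in nonTx. These 3 genes lay above the 95th percentile of all tested genes in Tx (0.80). In nonTx 4 genes lay above it (0.496), the same 3 and Dusp1 at 0.501. Ier2 lay lowest, above 53.7% of all tested genes in Tx and 65.7% in nonTx. The spread was not shown to differ between the groups. It was wider in Tx for 6 of the 10 genes, against 69.7% of all tested genes. A permutation test of the deviations from the group median, two-sided over 70 splits of the arrays and chosen after the values were seen, gave p = 0.286 for Fos. Because each group was first centred on its own median, the p-values of this test are approximate. The adjusted p over the 10 genes ran from 0.893 to 1, where 0.0286 is the smallest unadjusted p this design allows.

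**Figure D3:**
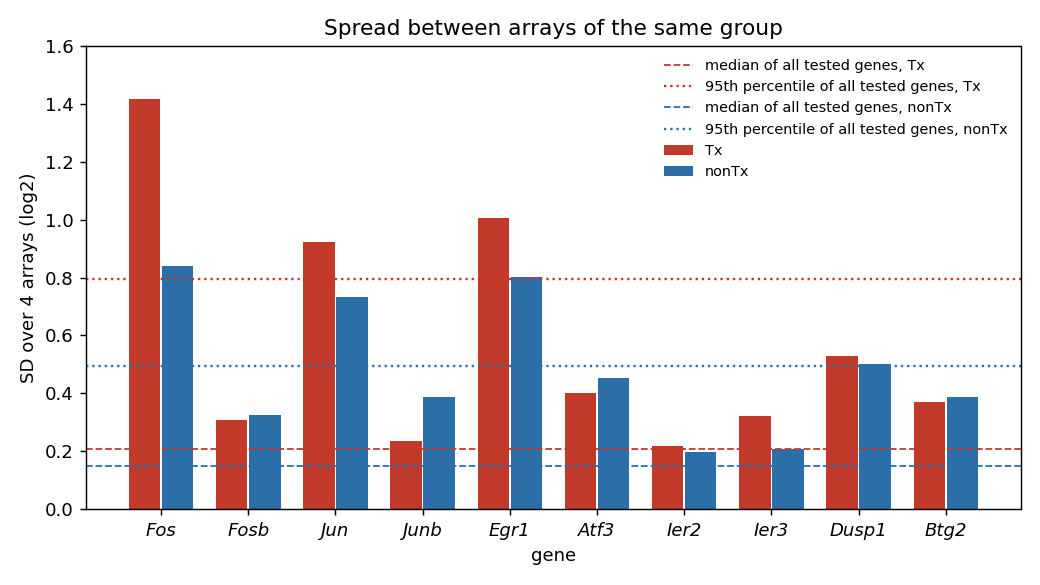
SD over the 4 arrays of a group on the log2 scale, Tx in red and nonTx in blue, for each of the 10 genes. Dashed and dotted lines give the median and the 95th percentile of all 16495 tested genes in each group. Fos, Jun and Egr1 stand above the dotted line of their group on both sides.

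The same arrays were high for most of the genes. After scaling, Tx replicate 1 was the highest Tx array for 8 of the 10 genes, all but Fosb and Ier3, while it was the highest Tx array for 22.4% of all tested genes. In nonTx, replicate 3 was the highest for 7 of the 10 genes, against 23.7% of all tested genes. The lowest Tx array was replicate 4 for 5 genes and replicate 2 for 4. Under quantile normalization, median scaling, normexp and the authors' log2 values the counts of 8 and 7 were the same, and without any scaling they were 9 and 7. As the median deviation of the 10 genes from their mean over 8 arrays, Tx replicates 1 to 4 stood at 0.39, -0.19, 0.07 and -0.52 on the log2 scale, and nonTx replicates 1 to 4 at -0.05, -0.04, 0.48 and -0.06. Without Tx replicate 1, the remaining Tx arrays still spanned 3.25-fold for Fos, 1.95-fold for Jun and 1.96-fold for Egr1. Without nonTx replicate 3, the nonTx arrays spanned 2.13-fold for Fos, 1.98-fold for Jun and 3.05-fold for Egr1. With both arrays left out, an alternative added after the data were seen, 3 of the 10 genes were higher in Tx, their median difference was -0.13 and 0 were called by limma.

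**Figure D4:**
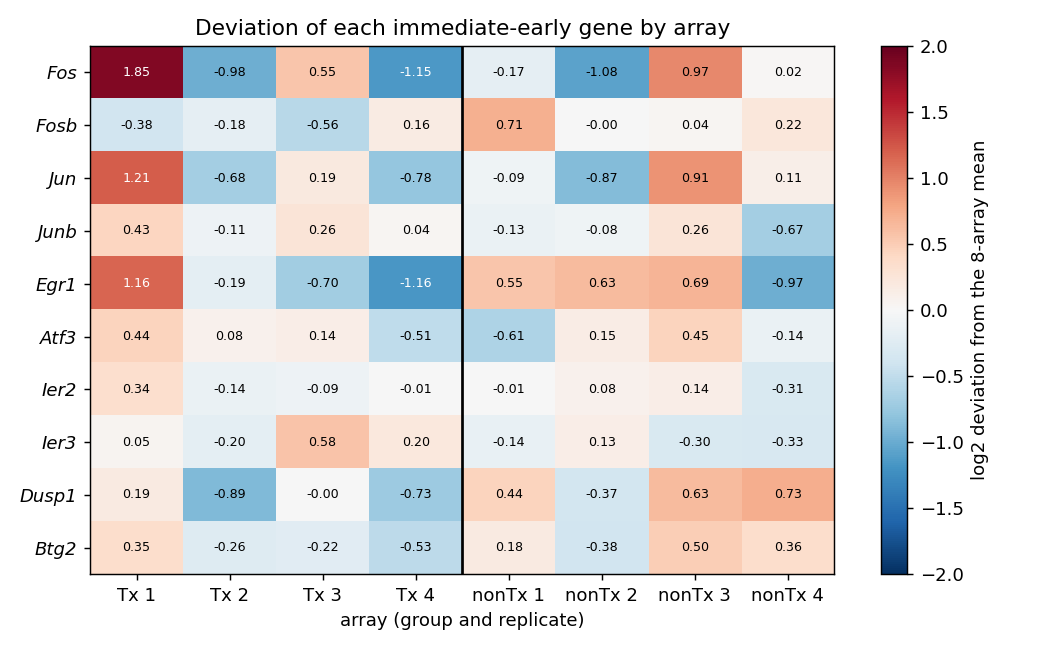
Log2 deviation of each of the 10 genes from its mean over the 8 arrays after scaling, with Tx arrays left of the black line and nonTx arrays right of it. The columns of Tx replicate 1 and nonTx replicate 3 are mostly red, Tx replicate 4 mostly blue, and Fosb and Ier3 depart from the other rows.

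Markers of other cells also varied between arrays, some lists along with the 10 genes and others not. All 10 hepatocyte markers, among them Alb and Ttr, were well above background on all 8 arrays, with median deviations between -0.09 and 0.09 on the log2 scale in each array. Of 6 mesothelial markers (Msln, Upk3b, Wt1, Krt8, Gpm6a, Upk1b), which label the cells that cover the liver, all 6 were tested. The log2 difference was below 0 for 5 of the 6, all but Krt8, which hepatocytes also express. Limma called 0 of the 6. At an unadjusted p under 0.05, 0 were lower and 1 was higher, beside 5.25% and 8.65% of all tested genes. The groups overlapped in all 6 markers, while 2.95% of all tested genes were lower and 5.11% higher in Tx without overlap. Of all tested genes, 56.3% had a difference above 0. Their median deviation was 1.09, -1.85, 0.00 and -0.46 in Tx replicates 1 to 4 and -0.43, 0.62, 0.78 and 0.58 in nonTx replicates 1 to 4, highest within each group on the array that was also highest for most of the 10 genes. Their summed scaled level, mostly from Krt8, ranged from 78.2 to 121 in Tx and from 50.2 to 94.0 in nonTx. Of the 6, only Krt8 was well above background on all 8 arrays. Msln and Wt1 were so on 7, Upk1b on 6, Gpm6a on 5 and Upk3b on 4. Gpm6a and Upk3b thus each entered the fit through 1 group alone, and no direction is read for them. The median deviations of the mesothelial markers rest partly on values near background. Bile duct markers, 4 of 6 tested, stood at 0.39, -0.84, 0.19 and -0.42 in Tx and between -0.16 and 0.26 in nonTx. Their summed level, mostly from Spp1, ranged from 5.81 to 11.6 in Tx and from 7.69 to 8.84 in nonTx. The defining marker Epcam was well above background on 2 of 8 arrays. Of 10 T cell markers 9 were tested, with a median difference of -0.62 and 7 lower in Tx, while 56.3% of all tested genes were above 0. Of the 9, 0 were called by limma and 4 were lower without overlap, beside 2.95% of all tested genes. Cd8a was well above background on only 3 of 8 arrays and Lef1 on 5, so each entered the fit through 1 group alone. Both had the higher median signal in nonTx (17.8 against 11.1 in Tx for Cd8a, 44.4 against 15.1 for Lef1). For these 2 dim markers no direction is read. The median deviation of the T cell markers was between -0.39 and -0.12 in Tx and between 0.04 and 0.51 in nonTx. Their summed level, mostly from Cd4, ranged from 20.5 to 33.99 in Tx and from 21.6 to 23.7 in nonTx. Neutrophil and monocyte markers, 7 of 8 tested, had a median difference of 0.47, with 5 higher and 2 lower in Tx and 0 called by limma. Groups did not overlap for 1 higher and 1 lower, beside 5.11% and 2.95% of all tested genes. They stood highest on Tx replicate 2 (0.56) and lowest on nonTx replicate 3 (-0.57). Their summed level ranged from 125 to 194 in Tx and from 155 to 207 in nonTx. The brightest marker, Csf3r, had a median signal of 25528 in Tx and 36221 in nonTx. Kupffer cell markers, 8 of 8 tested, were lowest among Tx arrays on replicate 1 (-0.25). Red cell markers, 4 of 6 tested, were highest on Tx replicate 4 (0.88) and lowest on Tx replicate 2 (-0.89). The part of these cells in the spread or the differences of the 10 genes was not tested. The 75th percentile of the signal, by which arrays were scaled, was 329.98, 249.6, 229.8 and 224.8 in Tx and lay between 273.6 and 301.8 in nonTx, so Tx replicate 1 was also the brightest array as a whole. The 10 spike-in probes were all higher in Tx, by 0.06 to 0.37 on the log2 scale after scaling. On the same scale the 10 genes ran from -0.71 for Dusp1 to 0.31 for Junb and 0.32 for Ier3.

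Among other genes of the immediate-early class no difference passed the test either. Of 56 such genes, all on the array, 52 were tested and 0 were called by limma over all probes. At an unadjusted p under 0.05, 5 were higher and 1 was lower in Tx, beside 8.65% and 5.25% of all tested genes. Their log2 differences had a median of -0.01 and ran from -0.73 to 0.58, with 24 above 0. Groups did not overlap for 3 genes higher and 2 lower in Tx, beside 5.11% and 2.95% of all tested genes. Tx replicate 1 was the highest Tx array for 28 of the 52 and nonTx replicate 3 the highest nonTx array for 16, beside 22.4% and 23.7% of all tested genes.

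Of these other genes, the phosphatase Dusp2, which acts on MAP kinases in the nucleus, had the smallest p. Its signal was 199.8, 120.3, 114 and 92.3 in Tx and 241, 181, 212 and 259 in nonTx. After scaling every Tx value was lower than every nonTx value, a difference of -0.65 ± 0.15 (limma, adjusted p = 0.254). Phlda1 went the other way at 0.58 ± 0.19, as did Dusp8, a phosphatase of JNK and p38 kinases, at 0.57 ± 0.24. Nfkbiz, a nuclear regulator of NF-kB, differed by 0.55 ± 0.21 and Ier5l by 0.36 ± 0.13. The survival factor Mcl1 differed by 0.21 ± 0.07, the small Maf protein Mafk by 0.29 ± 0.14 and the phosphatase subunit Ppp1r15a by 0.22 ± 0.11. The limma adjusted p of these 7 genes ran from 0.313 to 0.404. Genes of the class differed in which arrays were high, as 4 genes picked after their values were seen show. Maff stood at 2.43, -0.06, -0.19 and 0.36 (scaled log2) on the Tx arrays and at -0.14, -0.19, 0.80 and 0.05 on the nonTx arrays. Nr4a1, an orphan nuclear receptor, stood at 0.88, -0.32, 0.20 and -0.06 in Tx and at -0.01, 0.36, 2.34 and 0.92 in nonTx. Maff and Nr4a1 were highest on Tx replicate 1 and nonTx replicate 3 of their groups. Irf1, an interferon-response factor, ran otherwise at 3.70, 5.53, 4.49 and 4.51 in Tx and 4.25, 5.28, 4.92 and 4.57 in nonTx. Id3, an inhibitor of DNA binding, stood at 2.32, 3.17, 3.27 and 4.03 in Tx and 3.52, 3.12, 2.65 and 3.09 in nonTx. In both of these Tx replicate 1 was the lowest Tx array.

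Upstream, among the kinases and factors that switch these genes on, no difference passed the test. All 37 listed regulators were tested and 0 were called by limma. Their log2 differences had a median of 0.02 and ran from -0.71 to 0.60, and the median SD was 0.13 in Tx and 0.09 in nonTx. At an unadjusted p under 0.05, 2 were higher and 2 lower, beside 8.65% and 5.25% of all tested genes. Map3k1, a kinase above JNK, differed by -0.35 ± 0.09 and Rps6ka3, the RSK2 kinase that phosphorylates CREB, by -0.42 ± 0.12, with each Tx array below each nonTx array. Map2k2, the MEK2 kinase, differed by 0.18 ± 0.07, with each Tx array above each nonTx array. Groups did not overlap for 1 regulator higher and 2 lower in Tx, beside 5.11% and 2.95% of all tested genes. The limma adjusted p of Map3k1, Rps6ka3 and Map2k2 ran from 0.283 to 0.357. Among 15 tested partners and inhibitors of AP-1 and Egr1, 0 were called, 9 were higher and the median was 0.05. Over all tested genes 56.3% were above 0 and the median was 0.03. At an unadjusted p under 0.05, 2 of the 15 were higher and 1 lower, beside 8.65% and 5.25% of all tested genes. Their groups did not overlap for 2 higher and 0 lower, beside 5.11% and 2.95%. Bach1, a repressor that pairs with small Maf proteins, differed by 0.34 ± 0.12, the ubiquitin ligase subunit Fbxw7, which acts on Jun, by -0.27 ± 0.11, and the ubiquitin ligase Cop1, which also acts on Jun, by 0.18 ± 0.08 (limma, adjusted p = 0.328, 0.347 and 0.377).

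Agreement with the set varied from gene to gene. Each gene was set against the mean standardised profile of the other 9 over the 8 arrays, as a description of arrays that share scaling and signal level. Pearson's r was 0.88 for Fos, 0.87 for Jun, 0.65 for Egr1 and for Ier2, and 0.62 for Btg2. It was lower for Junb at 0.51, Dusp1 at 0.48 and Atf3 at 0.47, and below 0 for Fosb at -0.38 and Ier3 at -0.23. The 6 genes outside the set whose profile was most like the mean of all 10, among 16483 genes with complete values, were the transcription factor gene Ets1 (r = 0.99 over 8 arrays), the TWEAK receptor gene Tnfrsf12a (0.96), the corepressor gene Tle3 (0.96), the nuclear pore gene Seh1l (0.95), the orphan receptor gene Gpr135 (0.95) and the polarity gene Mpp5 (0.95). Ets1 stood at 0.96, 0.47, 0.60 and 0.44 (scaled log2) in Tx and at 0.70, 0.54, 0.91 and 0.51 in nonTx, a difference of -0.05 ± 0.14. With this many genes and 8 arrays, 42 genes had r above 0.9. Among the 52 other immediate-early genes the median r was 0.34, with 15 above 0.5, beside a median of -0.12 and 11.4% above 0.5 over all genes.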

How the data were processed

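RNA from 4 Tx and 4 nonTx livers was hybridised to one-colour Agilent arrays. Per the file headers, the authors' spot intensity is the processed signal of Feature Extraction 10.7.1.1, which lies close to the background-subtracted signal of the same spot; the submitters' processing notes name version 9.1. The deposited table repeats these intensities, and the authors' log2 values in it are, judged from the values, scaled per array and centred on each probe. Its 8 columns of flags were not used; flags, which take no unit, came from the scanner files. Of 62976 spots, 59305 were for genes. Control spots were left out, between 54 and 120 outlier spots per array were set to missing and 0 were saturated, and spots of a probe were averaged into 56605 probes. Intensities were divided by the 75th percentile of their array and taken to log2.

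Probes entered the test if the scanner called them well above background on 3 or more arrays in either group. Between 51.1% and 57.1% of an array's probes were. The test was limma 3.58.1 under R 4.3.3 (lmFit, then eBayes with its trend option and 6 residual degrees of freedom) over 30955 probes, adjusted by Benjamini-Hochberg and called at 0.05; the fit was tested on simulated data. A gene stands as its brightest tested probe. Symbols were updated through Entrez IDs (43901 of 46119 named probes matched). The number of arrays limits the precision. The members and lists were chosen with earlier results of these data known. Other genes named are the 8 of the immediate-early list and the 3 of each further list with the smallest p, and the 6 of most alike pattern; any others are said to have been picked later. Alternatives were normexp (offset 50, on the median signal), quantile normalization, median scaling, the authors' log2 values, other filters and variance models, a block for replicate number, array weights, averaged probes of a gene, and each array left out. A slide block was not possible on 1 slide.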

Additional observations from a re-analysis of the deposited data

Results flagged for a closer look

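Egr1 in the nonTx group had 1 array apart from the other 3: replicate 4, with a signal of 678 against 2150.4, 2086 and 2265 in replicates 1 to 3. The gap to the nearest array was 0.917 of the whole range of the scaled log2 values, above Dixon's 95% critical value for 4 samples. It was 1 of 20 such checks, 10 genes in 2 groups, and chance alone gives about 1 in 20. Without that array the Egr1 difference, -0.45 with all arrays, was -0.85.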

How the results depend on the processing

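Of the 10 genes, 0 were called under any of the 11 other settings or with any 1 of the 8 arrays left out, and likewise 0 of the 52 other immediate-early genes. The adjusted p nearest the threshold was 0.17, for Dusp1. Over all probes, where 0 were called, limma called 2 with normexp, 6 with median scaling (which moved the median of all genes to 0.13), 1 with the authors' log2 values, 1 without a variance trend, 5 with robust variance, 7 with array weights and between 0 and 188 with 1 array left out, the most without Tx replicate 2. Replicates of equal number did not deviate together (r of 0.04, 0.08, 0.10 and -0.01), so the numbers were not taken as pairs; with a replicate block 1 probe was called. Of the 10 genes, 2 were higher in Tx with array weights, 3 without Tx replicate 1 and nonTx replicate 3, and between 2 and 6 with 1 array left out (2 without Tx replicate 1). Their median difference then ran from -0.43 without Tx replicate 1 to 0.17, and their median SD from 0.370 to 0.439. With normexp this SD was 0.322, against 0.403 in the main fit. Directions reversed for 4 genes. Fos was -0.14 with array weights, -0.12 without both named arrays, and between -0.46 and 0.54 with 1 left out. Jun was 0.075 with median scaling and between -0.43 and 0.27 with 1 left out. Atf3 was -0.094 with array weights and between -0.12 and 0.26 with 1 left out. Ier2 was -0.0043 with quantile normalization, -0.026 with array weights, -0.43 as the mean of its probes, which brings in the dim one, -0.00047 without both named arrays, and between -0.054 and 0.11 with 1 left out. The cause was not tested. Dim probes near background limit Fosb, Ier3 and the further probes of Junb and Ier2; Fosb was -0.09 with normexp. A slide block was not run because all arrays share 1 slide.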

Other observations

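Genes of the clock and of the glucocorticoid response, which mark the time of sampling and stress hormones, also varied between arrays. Their median deviation was highest on replicate 1 among Tx arrays (0.43) and on replicate 3 among nonTx arrays (0.12). Of 20 listed genes 19 were tested, 0 were called by limma, and 3 had an unadjusted p under 0.05, all higher in Tx, beside 8.65% of all tested genes higher at that p. Their median log2 difference was 0.24, with 13 higher, beside a median of 0.03 and 56.3% above 0 over all tested genes. Fkbp5, a cochaperone that glucocorticoids induce, had signals of 5196, 2481, 2313 and 2116 in Tx and 1986, 2481, 1937 and 1726 in nonTx. After scaling each Tx array was above each nonTx array, a difference of 0.64 ± 0.17 (limma, adjusted p = 0.283), and Tx replicate 1 was again the highest array. Fkbp5 was the only 1 of the 19 with groups that did not overlap, beside 5.11% of all tested genes with Tx higher. The clock repressor Cry2 differed by 0.32 ± 0.10 (limma, adjusted p = 0.313). Zbtb16, a glucocorticoid-induced zinc finger factor, differed by 0.93 ± 0.38 (limma, adjusted p = 0.358), and there Tx replicate 4 was the highest array.

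Targets and factors of the ATF4 stress pathway, 11 of 11 tested, had a median of 0.16 with 9 higher in Tx, beside the same 0.03 and 56.3%, and 0 called, and 0 had an unadjusted p under 0.05. The asparagine synthetase gene Asns differed by 0.62 ± 0.33, Atf5 by 0.19 ± 0.13 and Atf4 by 0.16 ± 0.13 (limma, adjusted p = 0.422, 0.516 and 0.571). The median SD of the list was 0.48 in Tx and 0.17 in nonTx, not tested for a difference.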
